A study of Caenorhabditis elegans with 4 samples.

Results

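Wide domains of CEC-3 binding were described in *Caenorhabditis elegans* adults that carry the mutation *fem-2(b245)*. Peaks of the authors' whole-series list were sorted by position, neighbours on the same chromosome with at most 500 bp between them were joined, and joined domains of at least 10000 bp were kept. This gave 265 wide domains of 6350 joined domains, or 4.17%. The domains were thus chosen by the peak positions and widths of that list, so their number, widths, peaks, gaps and scores are given as a description, with no test. Chromatin immunoprecipitation followed by sequencing (ChIP-seq) used a rabbit polyclonal antibody against T09A5.8, the protein of *cec-3*. There were 4 samples, 2 replicates of T09A5.8 ChIP and 2 of input DNA, all hermaphrodites with the genotype *fem-2(b245)*III, grown at 20 °C. The labels call the stage a young adult with a germline, and the growth protocol describes gravid adults collected by flotation. No sample of another genotype is used here, so all values come from *fem-2* mutant animals.

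CEC-3 has a chromodomain, through which it binds methylated lysine 9 of histone H3. In *C. elegans* this mark lies mainly on the arms of the chromosomes, where repeated sequences are common and much of the heterochromatin touches the nuclear envelope. The methyltransferases MET-2 and SET-25 place it, and proteins with chromodomains read it. *fem-2* encodes a phosphatase that acts in sex determination.

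Replicate 1 had 3666 peaks, replicate 2 had 3867 and the whole-series list had 14075, which covered 12.4%, 12.6% and 12.8% of the chromosomes. The lists hold no read counts, so depth is unknown. Cover here means the share of a domain's bases that lie under peaks of a replicate list. How the whole-series list was made from the replicates is not given in the sources used here, so the replicate lists may rest on the same reads and their cover is a description too. Labels do not say whether the replicates came from separate cultures, and 2 samples of 1 group allow no test.

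The wide domains were few but held a large part of the bases under whole-series peaks. They contained 2165 of the 14075 whole-series peaks, or 15.4%, and 35.7% of the bases under those peaks. Of the bases under replicate peaks, they held 26.8% in each replicate list. Together they spanned 4.90 Mb, which is 4.88% of the 100.272 Mb of chromosome length. Their median width was 14405 bp, with quartiles of 11491 and 19403 bp, against a median of 830 bp over all joined domains. Most were thus only a little wider than the limit, and a small number were far wider. Of the 265, 141 were 10 to 15 kb wide, 60 were 15 to 20 kb, 50 were 20 to 40 kb and 14 were over 40 kb. The 10 widest held 13.7% of the bases of all wide domains. The 3 narrowest, all on the right arm of chromosome I, measured 10012, 10030 and 10039 bp. Just under the limit were joined domains of 9941 bp on I, 9968 bp at V 1197167 to 1207134 and 9978 bp at III 12562477 to 12572454. Among these 6, the lowest cover in either replicate was 80.8%.

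Most wide domains were strings of several peaks with short breaks between them. A domain held a median of 7 peaks, with quartiles of 4 and 11. Only 4 consisted of a single peak, 65 held 2 to 4 peaks, 111 held 5 to 9 and 85 held 10 or more. The widest peak of a domain made up a median of 42.5% of its width, and exceeded 50% of it in 100 domains. In 66 domains a peak of 10 kb or more was present, so the other domains reached 10 kb only by joining. The widest single-peak domain lay at V 16769466 to 16787190, 17725 bp wide with a score of 74.4. Another, at II 1120916 to 1136195, had the higher score of 113.2. The domain with the most peaks was also the widest, with 43 peaks over 132298 bp.

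The breaks were short against the limit of 500 bp. Among 1900 inner gaps the median was 133.5 bp, with quartiles of 69 and 231 bp, and 5.47% exceeded 400 bp. Joined domains of 5 to 10 kb had a median gap of 147 bp over 1580 gaps, and those under 5 kb had 149 bp over 4245 gaps. Gaps took 6.34% of the bases of wide domains, against 9.48% in domains of 5 to 10 kb. In the wide class the share was 8.005% at 10 to 15 kb, 6.15% at 15 to 20 kb, 5.94% at 20 to 40 kb and 3.83% over 40 kb. Domains over 40 kb thus had the lowest gap share in the whole-series list. The median gap share per domain was less regular, at 6.73%, 5.54%, 6.30% and 3.52% in the same order of classes. A single domain could still be open, since the largest gap share of a member was 25.4%.

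Wider domains were built of wider peaks. The median peak width was 678 bp in domains of 10 to 15 kb, 825 bp at 15 to 20 kb, 1002 bp at 20 to 40 kb and 1664 bp over 40 kb. Wide domains had a median of 4.40 peaks per 10 kb, against 6.41 in domains of 5 to 10 kb. Across the 265 domains, the number of peaks and the width had a Spearman's rho of 0.36. The points share 1 list and 1 joining rule, so this is a description.

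Scores, which the authors' caller gave on a scale not stated, had like medians in the width classes above 10 kb only when averaged over a domain. Averaged over the bases under peaks, a domain's mean score had a median of 29.7 at 10 to 15 kb, 28.0 at 15 to 20 kb, 29.2 at 20 to 40 kb and 28.4 over 40 kb. Below the limit the median was 24.5 at 5 to 10 kb and 6.36 under 5 kb. Domains with few, long peaks scored higher than those split into many. Between peaks per 10 kb and mean score, Spearman's rho was -0.63 across the 265 domains, which share 1 list. Scores inside a domain were uneven: among the 243 domains of 3 or more peaks, 169 held a peak scoring under 5. The median score of end peaks in these 243 domains was 13.7 and that of inner peaks 14.5, at median widths of 1096 and 1055 bp. The best-scoring peak stood at an end in 71 of the 243.

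**Figure D1:**
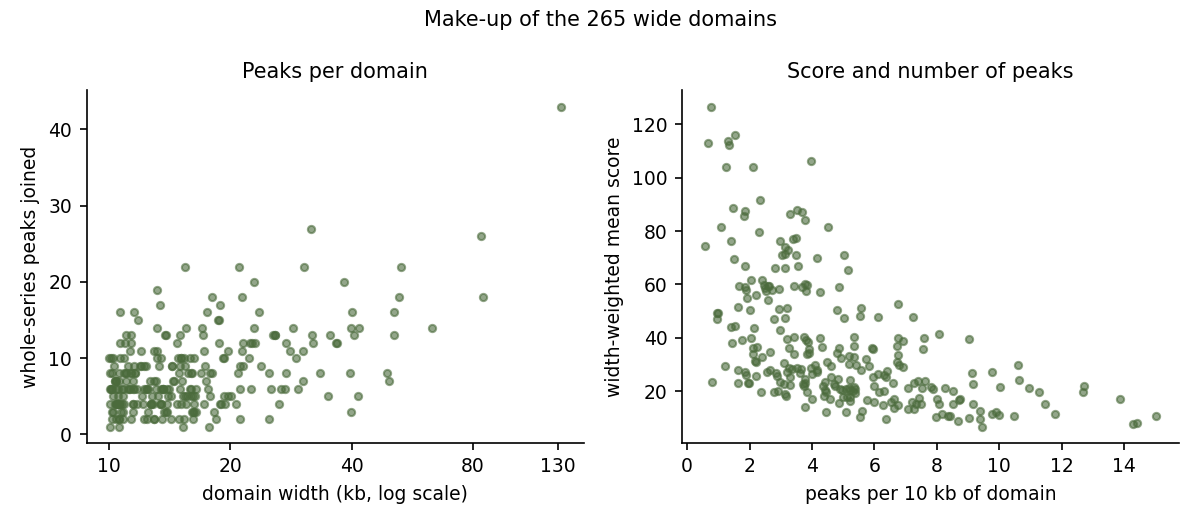
Make-up of the 265 wide domains, each point 1 domain. The left panel plots the number of joined whole-series peaks against domain width in kb (log axis), and the right panel the width-weighted mean score against peaks per 10 kb. Domains run up to 43 peaks at 132298 bp, and high mean scores occur in domains with few peaks per 10 kb.

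Wide domains lay almost wholly in the chromosome arms, where most joined domains of any width lay too. With each chromosome divided into 3 parts of equal length, 252 of the 265, or 95.1% (95% Wilson interval 91.8 to 97.1%, counting error only), had their midpoint in an arm. For all joined domains the share was 89.1%, and it was 88.8% under 5 kb, 89.8% at 5 to 10 kb, 92.2% at 10 to 15 kb and 98.3% at 15 to 20 kb. All 14 domains over 40 kb lay in arms, which make up 66.7% of the length. The 13 domains in centres were narrower and scored higher in the median than the 252 in arms, 11558 bp and 44.2 against 14849 bp and 28.1. Of the 13, 12 were at least 50% covered in both replicates. The exception was the only centre domain of X, at X 7343246 to 7365682, which was 95.7% covered in replicate 1 and 0% in replicate 2.

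Arms differed in how many wide domains they held. Chromosome I had 86, of which 63 were on the right arm and 19 on the left. Chromosome V had 70, of which 62 were on the right and 5 on the left. The order was the other way on III, with 38 of 48 on the left arm and 7 on the right. On IV, 19 of 23 were on the left, and on II, 14 of 20. X had 17 of its 18 on the left arm and 0 on the right. Wide domains per Mb were 5.71 on I, 3.48 on III, 3.35 on V, 1.31 on both II and IV, and 1.02 on X.

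**Figure D2:**
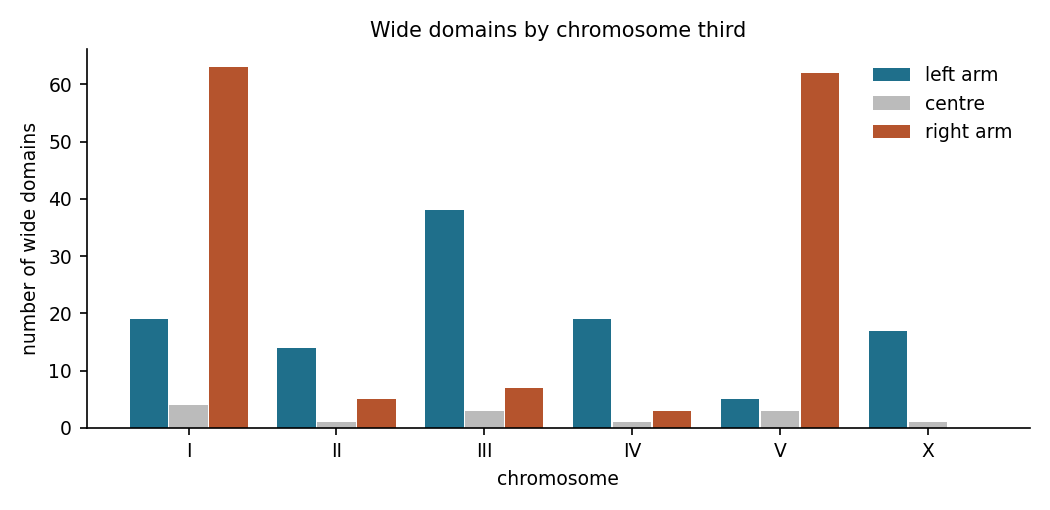
Number of wide domains (bars, from 0) in the left arm, centre and right arm of each chromosome, the chromosome being cut into 3 parts of equal length. The right arms of I and V hold 63 and 62 domains, the left arm of III holds 38, and the right arm of X holds 0.

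X had few joined domains, and wide ones held a high part of its bases under whole-series peaks. Of its 325 joined domains, 5.54% were wide, against 5.77% on I, 5.38% on V, 4.003% on III, 2.17% on IV and 2.05% on II. Wide domains held 58.2% of the bases under whole-series peaks on X. The shares were 45.4% on V, 39.3% on I, 33.0% on III, 19.8% on II and 19.7% on IV. Median width was 19894 bp on X, against 14221 bp on autosomes. Mean scores went another way, with a median over domains of 51.4 on III and 47.1 on IV, against 23.6 on V and 22.1 on X.

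Wide domains mostly had another joined domain close by, and most stood more than 10 kb from the next wide one. The nearest joined domain of any width lay at a median distance of 772 bp from a wide domain, against 923 bp for domains of 5 to 10 kb and 1198 bp for those under 5 kb. In 170 of the 265, or 64.2%, the nearest neighbour lay within 1000 bp, past the joining limit of 500 bp. The same share was 53.9% for domains of 5 to 10 kb and 42.6% for those under 5 kb. Of 259 pairs of consecutive wide domains on a chromosome, 27 were within 1000 bp of each other and 70 within 10 kb. The median distance of a pair was 37.1 kb, with quartiles of 8.39 and 119 kb. Taking wide domains no more than 10 kb apart as a run, 109 fell into 39 runs and 156 stood alone.

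The longest runs were on V, X and III. On V, 6 wide domains from 16972112 to 17258609 made up 96.2% of a 286 kb stretch. Another 8 from 17406683 to 17686728 made up 95.5% of 280 kb, and 3 from 17276897 to 17377217 made up 97.1% of 100.3 kb. These 3 runs held 42.0% of the bases in wide domains of V, all on its right arm. Replicates 1 and 2 covered 16.6% and 17.4% of the 286 kb stretch. They covered 52.2% and 31.4% of the 280 kb stretch, and 13.1% and 12.4% of the 100.3 kb stretch. On X, the runs from 1643420 to 1749655 and from 1760235 to 2003995 held 10 of the 18 wide domains and 74.0% of their bases. Most of the wide-domain bases of X thus lay in a stretch between these positions. Of the run from 1643420, replicates 1 and 2 covered 8.59% and 8.69%, and of that from 1760235, 23.9% and 47.4%. On III, 3 domains made up 98.8% of the run from 1468827 to 1581145, and 3 made up 95.9% of that from 1819074 to 1950585.

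Cover by the replicate lists was nearly complete for most wide domains and ranged down to 0% in the others. The median cover was 98.4% in replicate 1 and 97.3% in replicate 2, a mean of 97.9 ± 0.739% (SD, n = 2). At least 50% of the bases were covered in both replicates in 207 of the 265 domains, or 78.1%, against 46.7% of all 6350 joined domains. In replicate 1, 197 domains were at least 90% covered, 29 were between 10 and 90% and 39 were under 10%. In replicate 2 the counts were 204, 32 and 29. Most domains were thus at least 90% covered, and the others were divided between intermediate and low values. Of all bases in wide domains, replicate 1 covered 67.8% and replicate 2 covered 69.2%, below the medians, since the 34 domains under 50% in both replicates had a median width of 30828 bp.

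**Figure D3:**
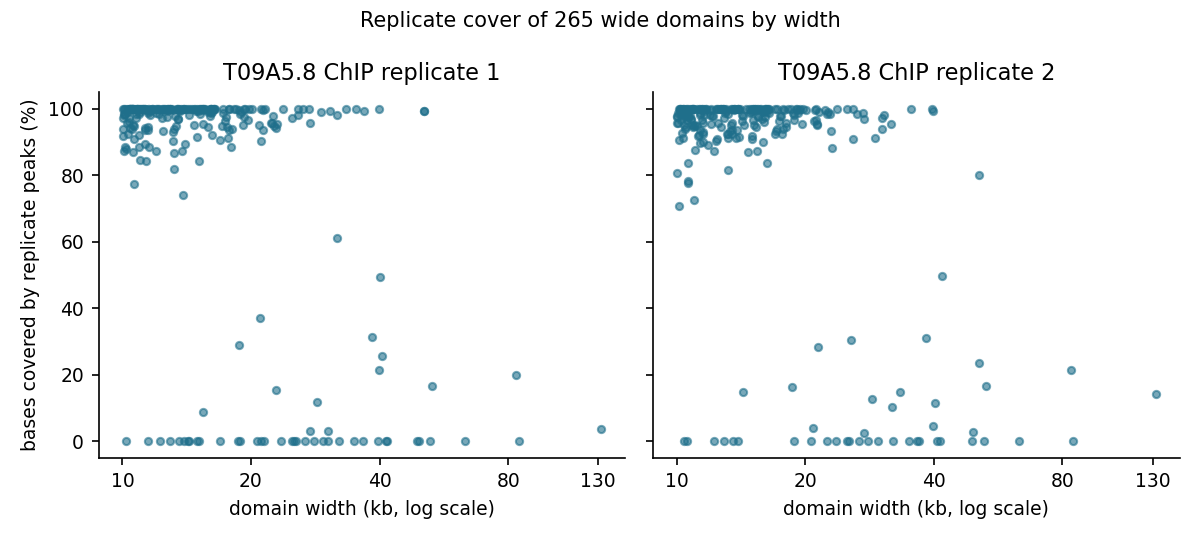
Share of bases covered by peaks of replicate 1 (left) and replicate 2 (right), in percent, against domain width in kb (log axis), each point 1 of 265 wide domains. Most points lie near 100% up to 20 kb, and most domains over 40 kb lie under 25% in both panels.

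Cover was lower in domains over 20 kb wide. The median over domains, as a mean of the replicates, was 98.7 ± 1.09% at 10 to 15 kb, 99.0 ± 0.209% at 15 to 20 kb, 93.7 ± 0.317% at 20 to 40 kb and 4.48 ± 3.81% over 40 kb (SD, n = 2 for each). Domains of 5 to 10 kb had 99.1 ± 0.0126%. At least 50% cover in both replicates was found for 129 of 141 at 10 to 15 kb, 54 of 60 at 15 to 20 kb, 23 of 50 at 20 to 40 kb and 1 of 14 over 40 kb. It was found for 94.7% of the domains of 5 to 10 kb and for 41.6% of those under 5 kb. High agreement thus held for joined domains from 5 to 20 kb and was lower on both sides. The widest single peak in the replicate lists was 40.5 kb in replicate 1 and 39.9 kb in replicate 2, and peaks of 20 kb or more numbered 24 and 17.

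**Figure D4:**
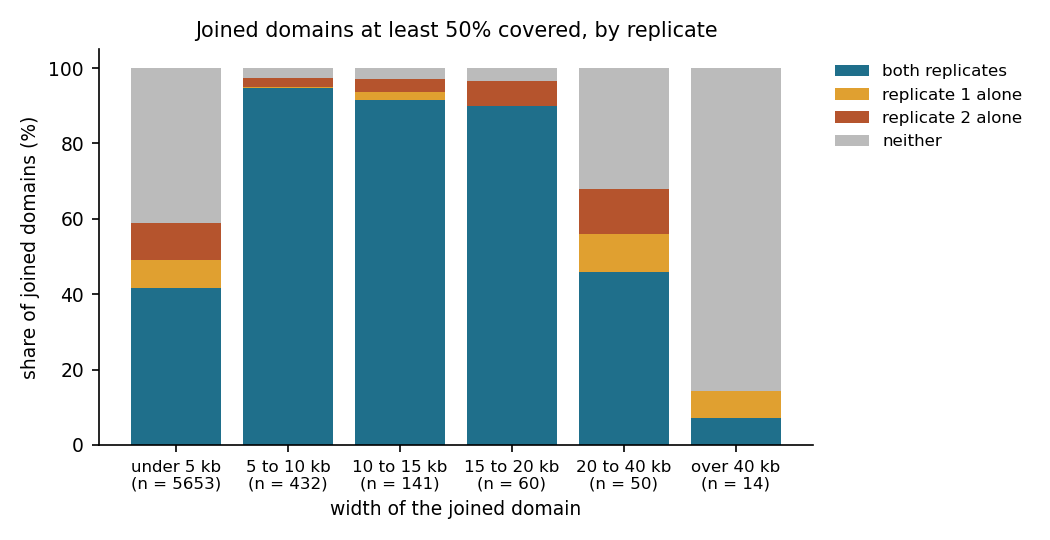
Share of joined domains, in percent, that were at least 50% covered in both replicates, in 1 replicate alone or in neither, by width of the joined domain (n under each bar). The share covered in both is 91.5% at 10 to 15 kb, 46.0% at 20 to 40 kb and 7.14% over 40 kb.

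The 10 widest domains show how uneven the cover was. The widest, at V 16984531 to 17116828, was 132298 bp wide and was 3.57% covered in replicate 1 and 14.2% in replicate 2. The next, at III 1468827 to 1553593, was 84767 bp wide with a mean score of 103.9 and was 0% covered in both. It also holds the highest peak score of any wide domain, 143.52. After it, the domain at V 17519198 to 17602781, was 19.9% and 21.3% covered in replicates 1 and 2. Low cover in both replicates was also found at V 17313968 to 17377217, at V 17145411 to 17194473 and at X 1643420 to 1695926, each with 0% in both. The domain at X 1696697 to 1749655 was 16.7% covered in both replicates. That at X 1760235 to 1809742 was 0% covered in replicate 1 and 2.84% in replicate 2.

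Only a pair of the 10 widest had high cover in any replicate. At V 17463880 to 17514834, replicate 1 covered 99.4% and replicate 2 covered 23.7%. At III 1857402 to 1908333, replicate 1 covered 99.4% and replicate 2 covered 79.9%, each with several peaks in place of 1. Its neighbours at III 1819074 to 1854376 and 1910714 to 1950585 were at least 99.4% covered in both replicates. The run on III around it had 97.9% and 90.2% of its bases under peaks of replicates 1 and 2. The other long run of III, from 1468827 to 1581145, had 11.4% and 11.6%.

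On the chromosomes without a domain over 40 kb, the widest ones were also uneven. The widest of II, 30548 bp at 1721337 to 1751884, was 99.4% and 98.2% covered in replicates 1 and 2. The widest of IV, 25837 bp at 2763141 to 2788977, was 98.0% and 90.9% covered. The widest of I measured 39860 bp and was 21.4% and 4.66% covered. By chromosome, at least 50% cover in both replicates was found for 19 of the 20 wide domains of II, 86.0% of I, 85.4% of III, 78.3% of IV, 67.1% of V and 44.4% of X.

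In 21 wide domains, cover was under 10% in both replicates, 7.92% of the 265 against 36.4% of all joined domains, most of which are narrow. By width the share was 40.4% under 5 kb, 2.31% at 5 to 10 kb and 2.13% at 10 to 15 kb. It was 1.67% at 15 to 20 kb, 22.0% at 20 to 40 kb and 42.9% over 40 kb. The 21 domains held 708 kb, or 14.5% of the bases in wide domains, and 19 of them had no replicate peak at all. Chromosome V held 8 of the 21 among its 70 wide domains, X held 5 among 18 and I held 5 among 86. III held 3 among 48, II held 0 among 20 and IV held 0 among 23. The median width of the 21 was 28097 bp and their median mean score 29.3, close to the median of 28.7 over all wide domains. Single values ran from 15.2 at X 1561069 to 1573996 to 103.9 at III 1468827 to 1553593, so they held both low- and high-scoring domains. On III they are 1468827 to 1553593, 1554167 to 1567727 and 11589111 to 11617207. On V they are 17119902 to 17144907, 17145411 to 17194473, 17291038 to 17311714, 17313968 to 17377217, 17421203 to 17462644, 19007758 to 19037279, 19296753 to 19328886 and 19949442 to 19976161. On X they are 118562 to 142106, 1561069 to 1573996, 1643420 to 1695926, 1760235 to 1809742 and 1932070 to 1957331.

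In all, 19 wide domains met no peak of either replicate, 16 met peaks of replicate 2 alone and 6 met peaks of replicate 1 alone. Replicate 1 had no peak over 35 of the 265, over 17 of the 432 domains of 5 to 10 kb and over 2810 of the 5653 under 5 kb. In replicate 2 these counts were 25, 11 and 2683, so lack of a replicate peak was commonest in the narrowest domains. For the 19, the distance between the flanking peaks differed between the replicates by a median of 0.163 kb and by at most 4.05 kb. At III 1468827 to 1553593 the flanking peaks were 119.25 kb apart in replicate 1 and 119.087 kb in replicate 2. At X 1643420 to 1695926 these distances were 70.3 and 70.2 kb, and at V 17421203 to 17462644 they were 43.1 and 43.0 kb. Over the 35 domains with no peak of replicate 1, the stretch had a median of 39.0 kb and ran from 15.6 to 155 kb. Over the 25 with no peak of replicate 2, the median was 39.1 kb and the range 14.8 to 914 kb. In these medians a stretch holding several such domains counts once for each, as for III 1468827 to 1553593 and III 1554167 to 1567727.

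In 24 wide domains the replicates differed by 50 percentage points or more, 9.06% of the 265 against 15.2% of all joined domains. This share was 16.5% under 5 kb and 2.08% at 5 to 10 kb. Among the 24, cover was higher in replicate 1 in 9 and in replicate 2 in 15. In the 9, the lowest cover in replicate 1 was 95.1% and the highest in replicate 2 was 23.7%. In the 15, the lowest cover in replicate 2 was 89.8% and the highest in replicate 1 was 37.0%. By this choice, 1 list covered each domain far more than the other did. The less covering list had no peak there at all in 5 of the 9 and in 10 of the 15. Chromosome V held 10 of the 24 among its 70 wide domains, I held 5 among 86 and IV held 4 among 23. III held 3 among 48 and X held 2 among 18.

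The domains covered in replicate 1 and not in replicate 2 were mostly on V. At V 16925155 to 16958515, a single peak of 33992 bp in replicate 1 covered 100% of the domain, and replicate 2 covered 14.7%. The neighbours V 18432651 to 18443236 and V 18443906 to 18457787 lay under 1 peak of 25567 bp in replicate 1, while replicate 2 had no peak for 27.8 kb. At V 19403264 to 19435116 the cover was 98.2% and 10.4%, and at V 19773606 to 19794479 it was 95.1% and 3.89%. The domain at III 200202 to 210588 was 97.1% covered in replicate 1 and 0% in replicate 2. The rest of the 9 are V 17463880 to 17514834, X 7343246 to 7365682 and 1 domain on I.

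Those covered in replicate 2 and not in replicate 1 were more widely spread. On V, the domain at 19896654 to 19926973, with a mean score of 79.8, was 0% covered in replicate 1 and 97.2% in replicate 2. At V 16891806 to 16903299 the cover was 0% and 89.8%, at V 17757993 to 17773464 it was 8.93% and 97.7%, and at V 18405889 to 18419816 it was 0% and 100%. On IV, the adjoining domains at 1960092 to 1974312 and 1974825 to 1985008 were 98.0% and 99.2% covered in replicate 2 and 0% in replicate 1, which had no peak for 31.7 kb there. Replicate 1 did reach IV 890320 to 911311 and IV 1422051 to 1440764, covering 37.0% and 29.0%, against 96.3% and 98.8% in replicate 2. On III, the domains at 1961670 to 1982822 and 13584231 to 13599207 were 0% covered in replicate 1 and 100% and 99.3% covered in replicate 2. X 1861667 to 1878610 was 0% covered in replicate 1 and 100% in replicate 2, and the other 4 are on I.

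Over all 265 wide domains, the replicate lists covered 68.5 ± 1.06% of the bases under whole-series peaks and 69.0 ± 0.120% of those in the 1900 gaps between them (SD, n = 2). Where the replicates covered a wide domain, they mostly ran straight across its gaps. In the 207 domains at least 50% covered in both, the replicate lists covered 97.6 ± 0.317% of the bases under whole-series peaks and 84.5 ± 2.003% of the bases in the 1337 gaps between them (SD, n = 2). Replicate 1 covered 1103 of these gaps in full and replicate 2 covered 1070. Replicate peaks were fewer and longer, with a median of 1 peak over a wide domain in both lists. A single replicate peak met 139 of the 265 domains in replicate 1 and 131 in replicate 2. The most replicate peaks over a domain were 5 in replicate 1 and 6 in replicate 2.

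In the median, replicate edges lay a little outside the edges of the wide domains. Replicate peaks were joined by the same rule for this comparison. Over the 432 edges of the 216 domains at least 50% covered in replicate 1, the replicate reached a median of 256 bp beyond the edge, and further out than the edge in 81.0% of cases. For the 444 edges of 222 domains in replicate 2 the median was 210 bp and the share 74.8%. Within 500 bp of the whole-series edge lay 66.7% of the edges in replicate 1 and 69.8% in replicate 2. Some stood far off: 55 of the 432 and 44 of the 444 lay over 5 kb beyond it. The absolute distance had a median of 288 ± 23.7 bp (SD, n = 2). Between the replicates, the median distance of corresponding edges was 172.5 bp over 414 edges, and 72.5% were within 500 bp of each other. That distance is smaller than the 304.5 and 271 bp by which the edges of replicates 1 and 2 stood off the whole-series edges.

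Peaks were also common just outside the wide domains. Within 5 kb of their edges, replicate peaks covered 41.6 ± 0.317% of bases (SD, n = 2) and whole-series peaks 37.9%, against 12.8% for the whole-series list over the chromosomes. The flanks of domains of 5 to 10 kb were 33.5 ± 0.0215% covered in the replicates, and those of domains under 5 kb 23.2 ± 0.389%. No whole-series peak lies in the first 500 bp outside, because it would have been joined. Replicate 1 covered 39.8% and replicate 2 covered 36.3% of that strip. Around the 21 domains under 10% covered in both, replicate cover was 44.3% and 45.1% at 1 to 2 kb outside the edge. At 1 to 5 kb inside it was 0% and 0.353%, which follows from the choice of these domains by low cover.

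**Figure D5:**
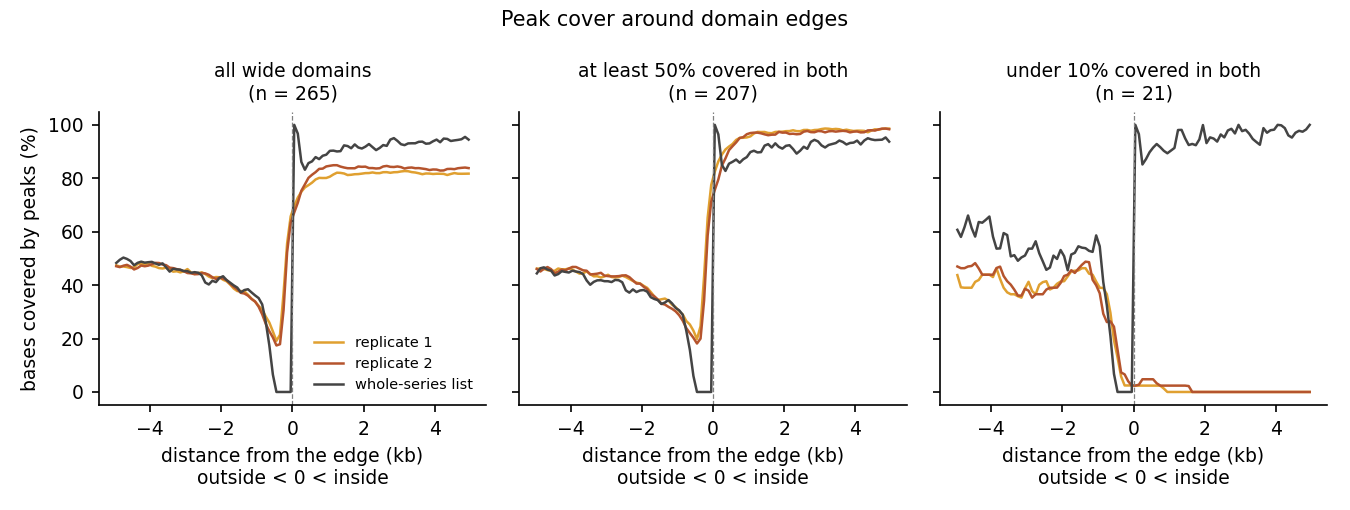
Share of bases covered by peaks, in percent, against distance from the nearer domain edge in kb (negative outside, positive inside, both edges averaged, 100 bp bins), for replicate 1, replicate 2 and the whole-series list. The panels show all 265 wide domains, the 207 at least 50% covered in both replicates and the 21 under 10% in both. In the last, replicate cover is near 0 inside the edge and is 44.3% and 45.1% at 1 to 2 kb outside. Replicate cover inside the edge of the 207 and of the 21 follows largely from their choice by cover.

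Wide domains of the replicate lists themselves were about as many as those of the whole-series list. Joined by the same rule, replicate 1 had 258 domains of 10 kb or more and replicate 2 had 266, with median widths of 13925.5 and 13681 bp. At least 50% of the bases lay in a wide domain of the whole-series list for 183 of the 258, or 70.9%, and for 195 of the 266, or 73.3%. Each replicate's own wide domains were mostly found in the other replicate, 248 of 258 and 247 of 266 at 50% of bases. A further 69 of replicate 1 and 66 of replicate 2 met no wide domain of the whole-series list. These were not empty there: a median of 79.9% and 80.4% of their bases lay under whole-series peaks, whose joined domains stayed under 10 kb. The widest joined domain of the replicates, 95964 bp at III 1812553 to 1908516 in replicate 1, spans 2 of the wide domains.

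Most of the replicate peaks with the commonest score lay outside the wide domains. That score, near the top of both lists, was 3100 and was given to 447 peaks of replicate 1 and 559 of replicate 2. Of these, 28.6% and 29.7% met a wide domain, against 10.2% and 10.6% of all peaks of those lists. By bases and not by number of peaks, wide domains held 26.8% of each list, which is near those shares. A peak with this score was present in 121 of the 265 wide domains in replicate 1 and in 147 in replicate 2. The same count over all joined domains was not made, and a wider domain meets a peak more easily. These 2 counts therefore allow no comparison with narrower domains. The differences between width classes, chromosomes and arms above were not tested, and neighbouring domains share the same libraries. Genes and repeats under the domains are not analysed here, since the gene coordinates at hand are of another build than WS220, the build of the files.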

How the data were processed

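Reads were aligned with BWA to ce10, per the submitters' processing notes. Per the file headers, positions are on WormBase WS220, and per the source column peaks were called with MACS for each ChIP replicate and with MACS v2 for the whole series. The peak score is as the authors deposited it, with no statement of its scale, so scores were compared only within a list. The sources used here do not give controls, thresholds, pooling or depth. Per the labels' protocols, chromatin was fixed in 1% formaldehyde for 10 min.

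From the deposited peaks, joined domains, inner gaps and covered bases were computed with Python 3.11.15, numpy 2.4.6, pandas 2.3.3 and scipy 1.17.1, and drawn with matplotlib 3.10.9. Joining and cover were tested on simulated data against a base-by-base count. Chromosome length is the largest peak end in any list. The Wilson interval covers counting error only. The members, tests and lists were chosen with earlier results of these data known. Regions are named by rule: the 10 widest, the widest of each chromosome, those under 10% covered in both replicates, those that differ by 50 percentage points, the one with the most peaks, the widest of a single peak and those nearest the limit; II 1120916 to 1136195 and the neighbours on III were chosen after their values were seen. Positions on chromosome I are not reported here. Alternatives were other gap limits, widths, score and cover limits, and leaving out each replicate.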

Additional observations from a re-analysis of the deposited data

How the results depend on the processing

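Wide domains numbered 265 in the list as joined, and 76 with a gap limit of 0 bp (single peaks), 190 at 250 bp and 344 at 1000 bp; 124 were at least 15000 bp wide. The widest domain measured 28225, 56966, 132298 and 224704 bp at limits of 0, 250, 500 and 1000 bp. The median gap share was 2.42% at 250 bp, 13.9% at 1000 bp, 4.81% without the lowest-scoring 25% of peaks of each list, 6.39% with a minimum width of 9000 bp and 4.97% with 15000 bp, against 6.30%. Median cover was 99.9%, 99.0% and 91.1% at gap limits of 0, 250 and 1000 bp, 98.6% without the lowest-scoring peaks, 96.2% at 15000 bp and 99.0% with replicate peaks joined, against 97.9%. Domains at least 50% covered in both replicates were 41 of 76 at 0 bp, 127 of 190 at 250 bp and 78 of 124 at 15000 bp. The main value was 207 of 265. Those under 10% in both, 21 of 265, were 27 of 76 at 0 bp and 40 of 190 at 250 bp. They were 11 of 344 at 1000 bp and 18 of 124 at 15000 bp, so their share moved more than their number. With either replicate left out, 29 to 39 domains were under 10%, 39 of them without replicate 2, 216 to 222 were at least 50% covered, median cover was 97.3 to 98.4%, cover of the gaps of all wide domains 68.9 to 69.1%, edge distance 271 to 304.5 bp and matched replicate domains 183 to 195. The share in arms was 98.4% at 15000 bp and 92.1% with arms as the outer 25% at either end, against 95.1%. The other alternatives stayed within 1.5 times, the replicates' spread or the counting interval, with counts compared as numbers and not as shares. The cause of these moves was not tested beyond the joining itself. No paired analysis was possible because no peak list of the input samples, which share the replicate numbers, is used here. Without read counts, what depth limits is unknown.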
